A study of Mus musculus with 6 samples.

Results

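The genes described here encode the proteins that mark mitochondria for removal by autophagy and the proteins that fuse and divide them. They were measured in the posterior tissue of mouse embryos with and without Fkbp8. The members were 10 genes fixed by symbol, 5 of mitophagy (Pink1, Bnip3, Bnip3l, Fundc1 and Bcl2l13) and 5 of mitochondrial dynamics (Opa1, Mfn1, Mfn2, Dnm1l and Fis1). A spot named by the platform annotation for a single member was present for 9 of the 10, 1 spot each, among 18505 genes named on the array. No spot carried the name Bnip3l, which is not analysed here. A further spot listed for Pink1 together with Idh2 was not assigned to either gene. Of the 9 genes, 8 were above background on all 6 arrays and were tested, among 12848 genes tested in all. Pink1 did not pass the filter on dim probes.

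The samples were 3 labelled Fkbp8 null (samples 6, 9 and 11) and 3 labelled WT (samples 7, 10 and 12). All were labelled embryonic day 9.5 with 21.6 somite pairs, and all came from a mixed C57BL/6 and 129S5/SvEvBrd stock. RNA came from the part of the embryo behind the forelimb pit, so neural tube was measured together with somites, gut, vessels, skin and blood. The labels name posterior neural tube as the tissue and anterior neural tube as the source, and the dissection protocol describes the posterior part. They do not describe the null allele, and they do not say whether a sample was 1 embryo, so the spread behind every p-value is that between these 6 samples and may be technical. Biotin-labelled cRNA was read on CodeLink Mouse Whole Genome arrays with 1 colour.

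Mitophagy is the delivery of whole mitochondria to lysosomes. The kinase PINK1 accumulates on damaged mitochondria and phosphorylates ubiquitin there, whereas BNIP3, BNIP3L, FUNDC1 and BCL2L13 sit in the outer membrane and bind LC3-family proteins of the autophagosome directly. FKBP8 is itself an outer membrane protein and acts as a receptor of this kind in human cells, where it binds LC3A. Mitofusins (MFN1, MFN2) fuse outer membranes, OPA1 fuses inner membranes, and the dynamin DRP1, encoded by Dnm1l, divides mitochondria after recruitment to the outer membrane, where FIS1 resides.

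Fkbp8 separated the groups as labelled. Its background-subtracted intensities were 24.7, 28.9 and 35.7 in null samples 6, 9 and 11, all near background, and 123, 183 and 486 in wild-type samples 7, 10 and 12, all above it. It was at least 3.33-fold lower in the null arrays. For this bound each null array was set at the higher of its own signal and its lowest signal above background. The fitted log2 difference, null minus wild type throughout, was -1.77 ± 0.23 (SE, n = 3 per group; limma adjusted p = 0.409), and -2.89 with no offset and values floored at 1. No source used here places this probe against the deleted or disrupted sequence. Each array held 34967 transcript spots, of which 63.3% to 69.2% were above background, and the median spot was 2.33 to 3.80 times the negative control median. Wild-type sample 10 stood apart. It was the single array with a clear Xist signal (log2 10.3 on the brighter probe) and the single array with Eif2s3y near background, a female pattern in 1 wild-type and no null sample. Its tail bud and presomitic markers averaged -0.87 on the log2 scale relative to the mean of the arrays, against -0.19 to 0.54 on the others.

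Among the mitophagy receptors, Bnip3 varied most between arrays. Bnip3 encodes a receptor of the BH3-only type and is a known target of hypoxia-inducible factor. Its normalized log2 signals were 11.27, 10.96 and 11.75 in null samples 6, 9 and 11 and 11.27, 10.79 and 11.54 in wild-type samples 7, 10 and 12. The groups overlapped almost fully, with the highest value in null sample 11 and the lowest in wild-type sample 10. Means were 11.33 ± 0.40 in null and 11.20 ± 0.38 in wild-type tissue (SD, n = 3 each). The log2 difference was 0.13 ± 0.24 (SE), with a 95% interval of -0.41 to 0.67 (limma adjusted p = 0.9999). Leaving out null sample 11 turned it to -0.08, leaving out wild-type sample 10 did the same, and leaving out null sample 9 raised it to 0.31. Its residual SD of 0.39 was above that of 96.2% of all probes tested, whose median was 0.15.

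The Bnip3 promoter is shown because it carries the letters of the hypoxia-response core. The 250 bases before the RefSeq start of Bnip3 lie at chr7:138909507-138909756 on the minus strand of GRCm38.p6. Capitals mark ACGTG on both strands, which overlap here in a single palindrome whose first base lies 108 bases before the start.
Bnip3: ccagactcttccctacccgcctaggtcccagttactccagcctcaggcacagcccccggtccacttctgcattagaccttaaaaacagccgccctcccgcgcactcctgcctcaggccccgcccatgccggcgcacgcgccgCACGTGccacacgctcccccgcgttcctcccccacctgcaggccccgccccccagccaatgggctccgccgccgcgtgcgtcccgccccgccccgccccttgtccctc
ACGTG was searched on both strands in windows of the same length. It occurred in 2 of 13 windows of the 9 members that the RefSeq table holds, this one and 1 of the 3 for Mfn2. Among all 32851 windows 16.6% held it, and 19 of 34 windows of the hypoxia list did. The related core GCGTG occurred in 7 of the 13 member windows, which belong to 5 genes since all 3 overlapping or neighbouring Mfn2 windows hold it. It occurred in 28.2% of all windows and in 17 of 34 windows of the hypoxia list. A match is a description of letters only.

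**Figure D1:**
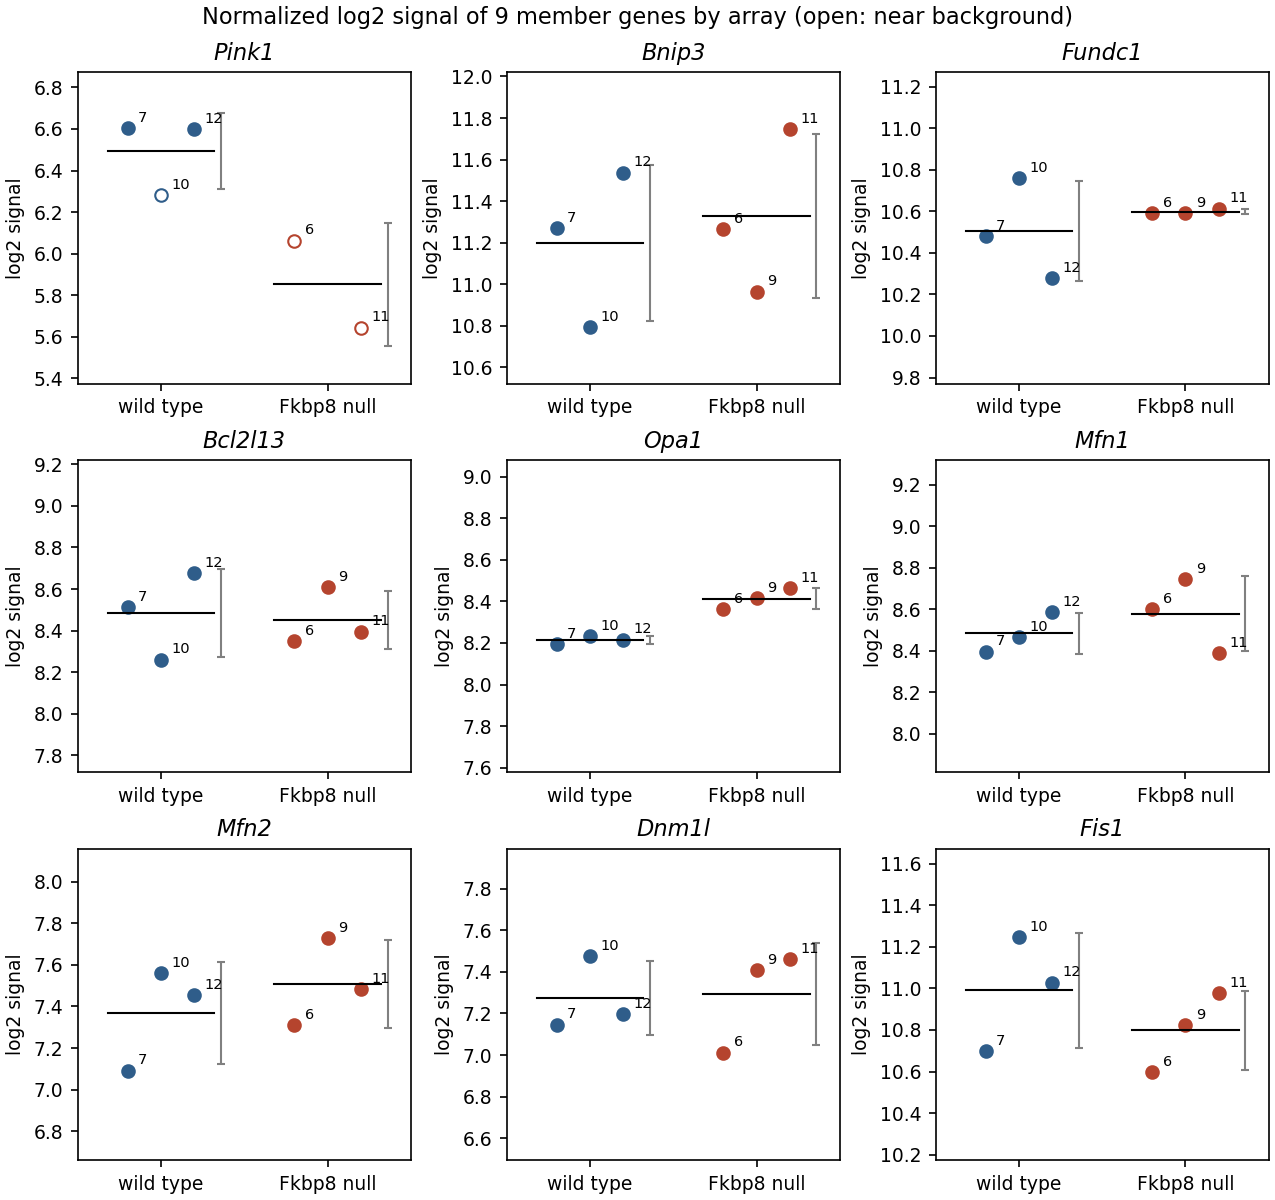
Normalized log2 signal (y axis) of the 9 member genes with a spot, for wild-type samples (blue) and Fkbp8 null samples (red), each point labelled with its sample number. All panels have the same y span, black lines are group means, grey bars 1 SD, and open points lie near background. The contaminated Pink1 spot of null sample 9 is left out. The groups overlap for every member but Opa1 and Pink1, and Pink1 is near background on 3 of its 5 plotted arrays.

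Fundc1 encodes a receptor whose activity depends on its phosphorylation and which is known for hypoxia-induced mitophagy. Its log2 signals in null samples 6, 9 and 11 were 10.59, 10.59 and 10.61, and those in wild-type samples 7, 10 and 12 were 10.48, 10.76 and 10.28. The null values lay close together (10.60 ± 0.01, SD, n = 3) and inside the wild-type range (10.51 ± 0.24). Fundc1 is on chromosome X, and its highest value came from sample 10, the array with the female pattern. The autosomal genes Dnm1l and Fis1 were also highest in sample 10, and a link to sex was not tested. For Fundc1 the groups differed by 0.09 ± 0.13 (SE) on the log2 scale, with a 95% interval of -0.21 to 0.39 and a limma adjusted p of 0.9999. With wild-type sample 10 left out the value was 0.22, and with sample 12 left out it was -0.02.

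Bcl2l13 encodes a BCL-2 family protein that acts as a mammalian counterpart of the yeast mitophagy receptor Atg32. Its log2 signals were 8.35, 8.61 and 8.39 in null samples 6, 9 and 11 and 8.51, 8.26 and 8.68 in wild-type samples 7, 10 and 12. All null values fell within the wild-type range. Its fitted log2 difference was -0.03 ± 0.13 (SE), with a 95% interval of -0.34 to 0.27 and a limma adjusted p of 0.9999. Leaving out wild-type sample 10 gave -0.14 and leaving out sample 12 gave 0.06.

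Pink1 was close to the detection limit. Its background-subtracted intensities were 17.1, 28.2 and -2.50 in null samples 6, 9 and 11, none above background, with the spot of sample 9 marked as contaminated. In wild-type samples 7, 10 and 12 they were 43.3, 27.7 and 54.0, and 2 of the 3 were above background. On the 5 usable arrays, the normalized log2 signals of the null samples (6.06 and 5.64) lay below those of the wild-type samples (6.60, 6.28 and 6.60). With the contaminated spot counted, the raw intensities of the groups overlapped. With no null spot above background and wild-type sample 10 near background as well, no fold and no test are given for Pink1.

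Of the dynamics genes, Opa1 was the one tested member whose groups did not overlap. Opa1 encodes the dynamin-related GTPase that fuses inner membranes and keeps cristae closed. Its log2 signals were 8.36, 8.41 and 8.46 in null samples 6, 9 and 11 and 8.19, 8.23 and 8.22 in wild-type samples 7, 10 and 12. Every null array was above every wild-type array, by a small amount. Means were 8.41 ± 0.05 and 8.21 ± 0.02 (SD, n = 3 each). The residual SD of Opa1 was 0.038, above that of only 1.19% of all probes tested. The log2 difference was 0.20 ± 0.09 (SE), 1.15-fold with a 95% interval of 0.997 to 1.32, and it did not pass (limma unadjusted p = 0.0537, adjusted p = 0.9999). Of all probes tested, 4.92% had every null array above every wild-type array, and 9.25% did not overlap in either direction. The difference stayed between 0.17 and 0.24 over the 18 alternatives. The unadjusted p ranged from 0.0421 with array weights to 0.202 with median scaling, and 2 alternatives gave one under 0.05.

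The mitofusin genes had positive differences smaller than their standard errors. Mfn1 had log2 signals of 8.60, 8.75 and 8.39 in null samples 6, 9 and 11 and 8.40, 8.47 and 8.59 in wild-type samples 7, 10 and 12. Null sample 11 held the lowest Mfn1 value of all 6 arrays and null sample 9 the highest. The log2 difference was 0.09 ± 0.12 (SE), with a 95% interval of -0.18 to 0.37 (limma adjusted p = 0.9999), and 0.01 without null sample 9. Mfn2, whose product also tethers mitochondria to the endoplasmic reticulum, had 7.31, 7.73 and 7.48 in the null samples in the same order and 7.09, 7.56 and 7.45 in the wild-type samples. These groups overlapped too, with wild-type sample 7 the lowest. The log2 difference was 0.14 ± 0.16 (SE), with an interval of -0.22 to 0.50 (limma adjusted p = 0.9999). Leaving out wild-type sample 7 moved it to 0.00 and leaving out null sample 9 reduced it to 0.03, while it was 0.24 with wild-type sample 10 left out.

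The fission genes differed in the sign of their mean differences. Dnm1l, the dynamin of division, had log2 signals of 7.01, 7.41 and 7.46 in null samples 6, 9 and 11 and 7.15, 7.48 and 7.20 in wild-type samples 7, 10 and 12. Both the lowest null and the lowest wild-type value came from the 2 arrays with the lowest median intensity, samples 6 and 7. Wild-type sample 12, with the highest median intensity, had 7.20, and a link to array intensity was not tested. For Dnm1l the log2 difference was 0.02 ± 0.15 (SE), with a 95% interval of -0.32 to 0.36 (limma adjusted p = 0.9999). It was 0.16 without null sample 6 and 0.12 when wild-type sample 10 was left out. Leaving out any other array turned it negative, from -0.02 without wild-type sample 12 to -0.06 without null sample 11. Fis1 encodes a tail-anchored adaptor of the outer membrane. Its log2 signals were 10.60, 10.82 and 10.98 in null samples 6, 9 and 11 and 10.70, 11.25 and 11.03 in wild-type samples 7, 10 and 12. The 2 highest values were wild-type, yet null samples 9 and 11 lay above wild-type sample 7. Fis1 had the most negative difference among the 8 tested members, -0.19 ± 0.16 (SE), with a 95% interval of -0.56 to 0.18 (limma adjusted p = 0.9999). The value was negative under all 18 alternatives, from -0.34 with wild-type sample 7 left out to -0.06 with sample 10 left out.

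**Figure D2:**
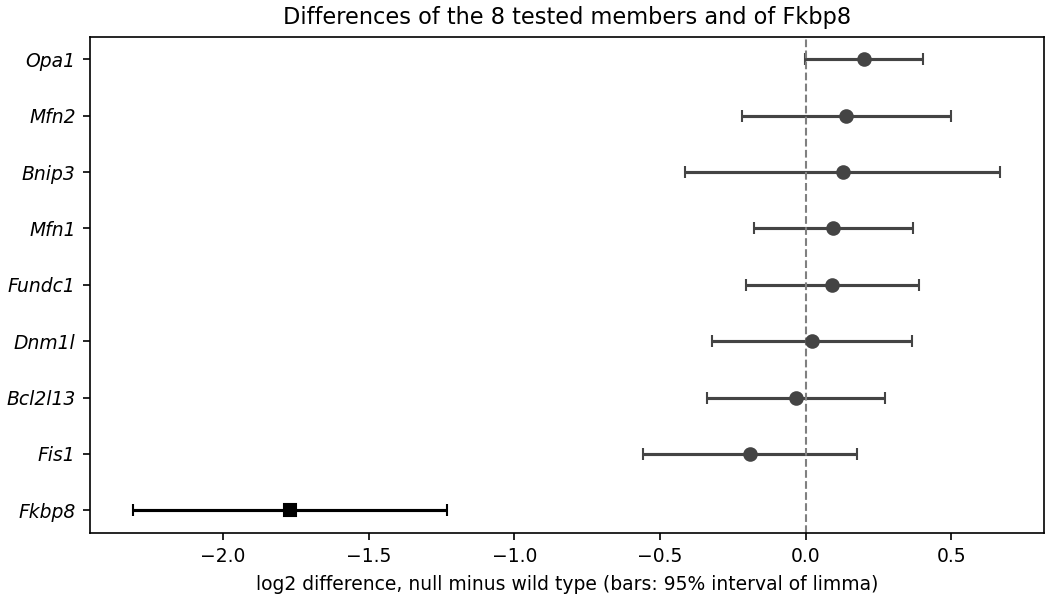
Fitted log2 differences, null minus wild type (x axis), of the 8 tested members (circles) and of Fkbp8 (square), with 95% intervals of limma as bars. All 8 member intervals include 0, from -0.56 for Fis1 to 0.67 for Bnip3, while that of Fkbp8 runs from -2.31 to -1.23. Fkbp8 was near background on every null array, so its interval depends on the offset. With no offset its difference was -2.89.

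None of the 8 tested members passed an adjusted p of 0.05 in limma, and none had an unadjusted p under 0.05. Over all 21243 probes tested, 0.00471% passed the adjusted threshold, a single probe (0.00778% of genes). It measures Tm7sf3, which is no member and was looked up after its value was seen. At an unadjusted p under 0.05 the share was 3.09% (656 probes), with 402 probes without null sample 9 and 1348 without wild-type sample 10. Differences were positive for 6 members and negative for Fis1 and Bcl2l13, beside 53.5% positive among all genes tested. The median difference was 0.09 for the members and 0.01 for all genes tested, and the median size without sign was 0.11 and 0.09. By role, 2 of 3 receptors and 4 of 5 dynamics genes had positive differences. The 95% intervals bound what these arrays leave possible. They reached 0.20 (Opa1) to 0.54 (Bnip3) to either side on the log2 scale, and as folds they ran from 0.679-fold for Fis1 to 1.59-fold for Bnip3. These intervals do not show that the groups are alike.

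**Figure D3:**
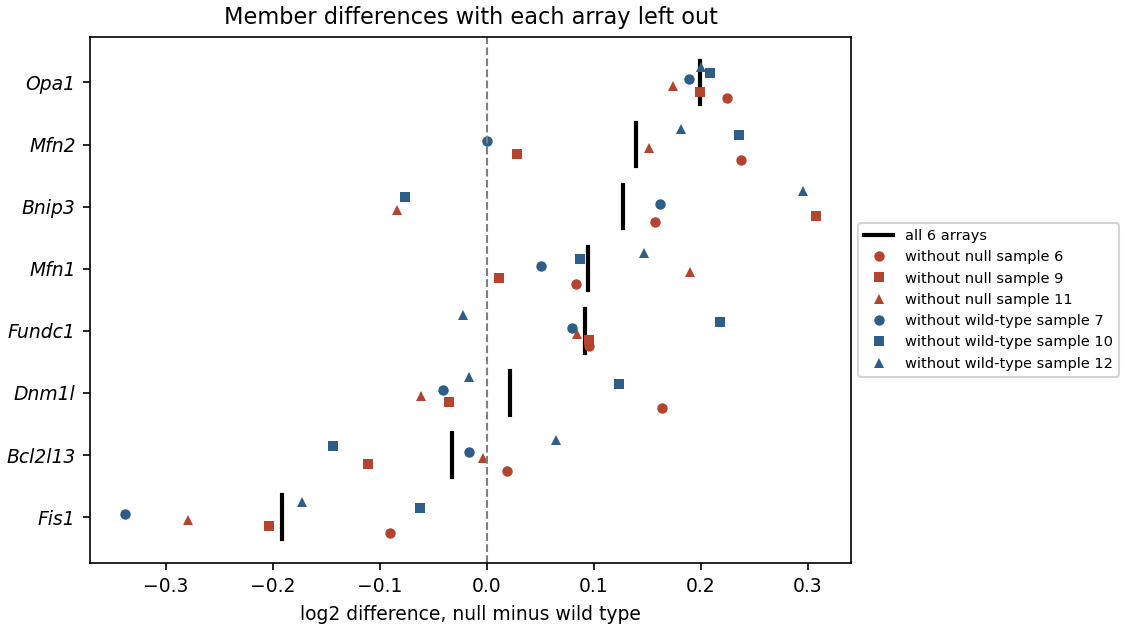
Log2 difference, null minus wild type (x axis), of each tested member with all 6 arrays (black line) and with 1 array left out in turn (red, a null sample left out; blue, a wild-type sample left out). Opa1 stays between 0.17 and 0.22 and Fis1 below 0, while Bnip3, Fundc1, Bcl2l13, Mfn2 and Dnm1l cross or touch 0.

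No pattern across arrays was shared by all 8 tested members. Wild-type sample 10 held the highest Fundc1, Dnm1l and Fis1 values and the lowest Bnip3 and Bcl2l13 values. Null sample 9 was highest for Mfn1 and Mfn2, null sample 11 for Bnip3 and Opa1, and null sample 6 was lowest for Dnm1l and Fis1. Tissue markers also varied between these arrays. The 9 tested erythroid markers, 2 higher and 7 lower in null, averaged -0.58 in null sample 6 and -0.52 in wild-type sample 7 relative to the mean of the arrays, and 0.67 in wild-type sample 10. Fis1 and Dnm1l were lowest in samples 6 and 7 and highest in sample 10 as well. Mfn2 was lowest in samples 7 and 6 but highest in null sample 9, and the other tested members had other extremes. Across groups the erythroid list ran from -0.58 to 0.34 in the null arrays and from -0.52 to 0.67 in the wild-type arrays. No erythroid marker was near background on all arrays. With sample 10 left out the erythroid markers were 7 higher and 2 lower. Neural markers were lower in null for 7 of 9 tested genes, with a median of -0.17 (array means -0.38 to 0.05 in null, -0.08 to 0.46 in wild type). Without sample 10 that count was 5 of 9 and the median -0.15. Somite markers were higher for 9 of 10 (array means 0.00 to 0.33 in null, -0.59 to 0.25 in wild type), and their median of 0.31 became 0.10 once sample 10 was left out. Tail bud markers were higher for 8 of 11, and for 1 of 11 with that sample left out. Surface ectoderm markers were lower for all 9 tested genes (array means -0.21 to -0.01 in null, 0.01 to 0.22 in wild type), with a median of -0.25 that was also -0.25 without sample 10. None of these marker genes passed over all probes (limma adjusted p = 0.9999 for each list's smallest). At an unadjusted p under 0.05 there were 3 of 9 neural, 3 of 9 ectoderm and 1 of 10 somite genes. There were also 1 of 9 erythroid and 0 of 11 tail bud genes, beside 3.21% of all genes tested. With 1 array left out the counts ran from 1 to 3 for neural, 1 to 4 for ectoderm and 0 to 5 for somite genes. They ran from 0 to 1 for erythroid and 0 to 3 for tail bud genes. The part of these markers in the member values was not tested. In such bulk tissue, fewer cells of a type and less RNA per cell cannot be told apart.

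The rest of the pathway was read from 6 lists of related genes, of which 114 genes were tested. None of the 114 passed an adjusted p of 0.05 in limma (smallest 0.9999). At an unadjusted p under 0.05 there were 3 (2.63%), against 3.21% of all genes tested, and the count became 7 with wild-type sample 10 left out and 1 with null sample 9 left out. Of the 114 genes, 110 were above background on all 6 arrays, and 2 of the 3 remained when only such probes were tested. Positive differences were found for 64 and negative ones for 50, with a median of 0.02.

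In the list of PINK1 pathway genes, 6 of 10 tested genes were positive. The mitochondrial phosphatase gene Pgam5, which acts on FUNDC1, had a log2 difference of 0.17 ± 0.10 (SE). Rhot1, which encodes the mitochondrial transport GTPase MIRO1, had 0.16 ± 0.10, and the deubiquitinase gene Usp8 0.25 ± 0.14. Usp8 was above background on only 2 of 3 wild-type arrays and passed the filter through the null arrays alone. Its value is therefore no support for a difference. Of the 9 other receptors and adaptors, 2 were positive and 7 negative. Nlrx1, whose product is a mitochondrial receptor for LC3, had -0.18 ± 0.11, Calcoco1 -0.14 ± 0.10, Nipsnap1 -0.09 ± 0.15 and the inner membrane receptor gene Phb2 -0.08 ± 0.14. With wild-type sample 10 left out Nipsnap1 had -0.25 and Phb2 -0.19, but with wild-type sample 12 left out they had 0.006 and 0.007. Without null sample 6, and likewise without wild-type sample 12, 4 of these 9 genes were positive and 5 negative. No gene of either list had an unadjusted p under 0.05.

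Among 30 tested genes of the autophagy core, 19 were positive, with a median of 0.08, and 2 had an unadjusted p under 0.05. Uvrag, a subunit of a class III phosphatidylinositol kinase complex, had 0.22 ± 0.09 (SE). The other was Atg10, the E2-like enzyme that joins ATG12 to ATG5. Atg10 was near background on all 3 null arrays and passed the filter through the wild-type arrays alone, so its place in this count is no support for a difference. Its wild-type mean was 6.53 on the log2 scale, where the lowest signal above background was 6.25 to 6.33 across arrays. No fold is given for Atg10. Atg2b, a lipid transfer protein gene, had 0.21 ± 0.11. Map1lc3a encodes LC3A. Its log2 signals were 10.23, 9.68 and 9.76 in null samples 6, 9 and 11 and 10.23, 9.74 and 10.80 in wild-type samples 7, 10 and 12. The groups overlapped, and wild-type sample 12 was the highest array. The difference of Map1lc3a was -0.36 ± 0.26, and -0.09 without that sample.

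Of 21 tested regulators of mitochondrial shape, 15 were positive, with a median of 0.05. The DRP1 adaptor genes Mff and Mief1 had 0.02 ± 0.14 and 0.17 ± 0.10 (SE), and their relative Mief2 did not pass the filter on dim probes. The proteases that cut OPA1 had -0.06 ± 0.14 (Oma1) and 0.06 ± 0.16 (Yme1l1). Immt, the cristae organiser mitofilin, had 0.16 ± 0.09, and Mtfr1 -0.38 ± 0.23. Mtfr1 was highest in wild-type sample 10, and without that array its difference was -0.09. Leaving out sample 10 also moved Mff to 0.17, Yme1l1 to 0.19 and Oma1 to 0.02. Leaving out wild-type sample 7 moved them the other way, to -0.02, -0.07 and -0.20 in that order. Without sample 7, 10 of 20 regulators were positive, and without null sample 9 it was 11 of 21. Genes of mitochondrial biogenesis and content were split evenly, 11 positive and 11 negative of 22, with a median of -0.01. Their smallest p values belonged to the mitochondrial RNA polymerase gene Polrmt (0.16 ± 0.10), the nuclear receptor gene Esrra (0.14 ± 0.10) and citrate synthase, Cs (0.18 ± 0.14). The coactivator gene Ppargc1a was near background on all arrays.

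Bnip3 is shared with the hypoxia response, whose 22 other tested genes were 11 positive and 11 negative with a median of 0.01. The list mean was lowest in wild-type sample 10 (-0.14) and highest in wild-type sample 12 (0.12), and stayed between -0.03 and 0.02 in the null arrays. Bnip3 was likewise lowest in sample 10, but its highest array was null sample 11. Hif1a had a log2 difference of -0.04 ± 0.18 (SE), which was 0.07 with sample 10 left out, and its partner Arnt had -0.23 ± 0.10. The related factor gene Epas1 had -0.21 ± 0.09 but was above background on only 1 of 3 null arrays. Ddit4, an inhibitor of mTORC1 that hypoxia and p53 induce, had 0.39 ± 0.12 and was the 1 gene of the list at an unadjusted p under 0.05.

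**Figure D4:**
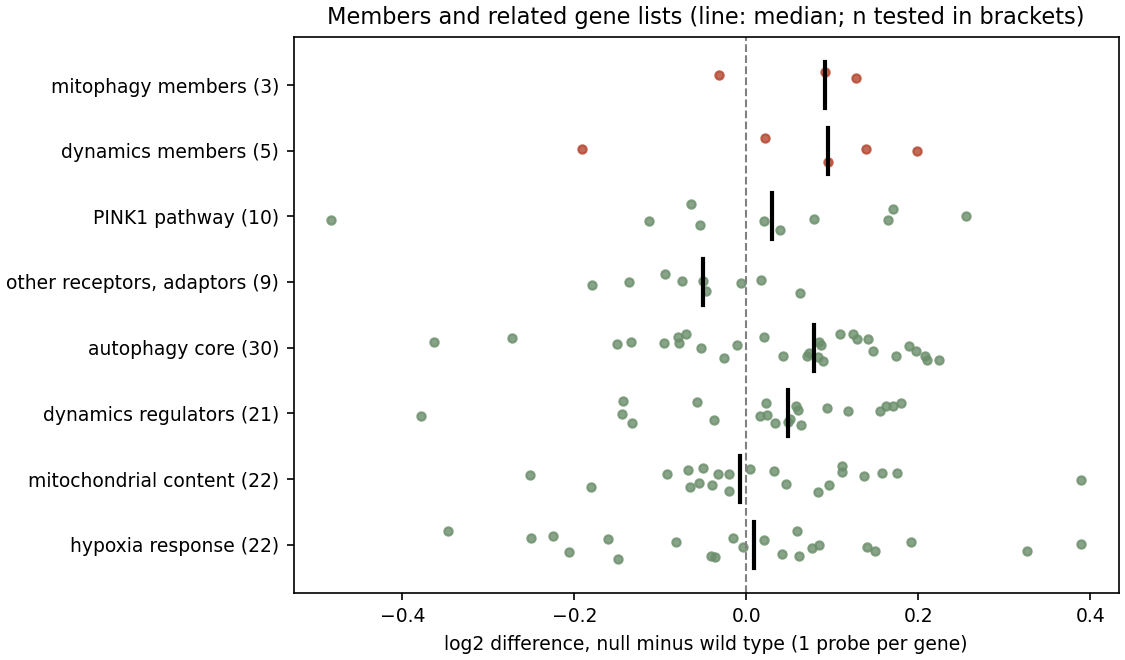
Log2 difference, null minus wild type (x axis), of every tested gene in the 2 groups of members (red) and the 6 related lists (green), 1 probe per gene, with list medians as black lines and the number tested in brackets. Medians lie between -0.05 for other receptors and adaptors and 0.09 for both groups of members.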

How the data were processed

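Arrays were quantified with CodeLink Expression Analysis 4.1, per the file headers. The deposited raw intensity already has local background subtracted, since 38 to 67 spots per array lie below 0. The normalized intensity is that value divided by the array's median, per the file headers. In the authors' value table stands the latter times a factor of 1.01 to 1.02 per array, on a linear scale. Here negative raw values were set to 0 and 50 was added to each before log2 and quantile normalization. The offset compresses differences of dim probes. Between 391 and 543 spots per array, those with an irregular, contaminated or defective mark, were dropped. A probe was tested if above background on all arrays of at least 1 group, with at least 2 usable values in each. The two-sided tests were those of limma 3.58.1 (lmFit, eBayes; R 4.3.3), and p-values were adjusted by Benjamini-Hochberg over 21243 probes. Where a gene had several probes, that with the highest mean signal counted. Intervals are 95%, and the number of arrays limits their precision. All arrays were quantified within minutes of each other per the file headers, and no slide or batch label was given to test. The fit was tested on simulated data.

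Names came from the platform annotation, updated by Entrez number through RefSeq's GRCm38.p6 table, or by accession (497 spots). Sequences are RefSeq's. The arrays' files name no genome build, so no gene coordinates are given beyond the promoter. The members and lists were chosen with earlier results of these data known. All members were named; of each related list the 3 genes with the smallest p and a set of partners of the members were named. Alternatives covered the offset, normalization, spot marks, filter, variance model, array weights, the authors' values, probes per gene and each array left out.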

Additional observations from a re-analysis of the deposited data

How the results depend on the processing

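No member or related gene passed an adjusted p of 0.05 under any of the 18 alternative fits. The smallest value of the 8 tested members was 0.792, shared by Opa1 and Fundc1 without wild-type sample 10. The count of positive members was 6 under the 12 settings that kept all arrays and with the mean of all probes of a gene, and ranged from 4 to 7 with an array left out. With an array left out, differences on the log2 scale ranged from -0.084 to 0.31 for Bnip3, -0.022 to 0.22 for Fundc1, -0.14 to 0.065 for Bcl2l13, 0.00 to 0.24 for Mfn2 and -0.062 to 0.16 for Dnm1l, so these changed sign. Opa1, Mfn1 and Fis1 kept theirs. The Mfn2 value without wild-type sample 7 was -0.000216. The count of probes called over the array, 1 here, was 0 with a filter for all arrays, the authors' value table, cyclic loess, no offset or the scanner software's normalized intensity, 2 with all spots kept, and 0 to 1 with an array left out. The Fkbp8 difference stayed negative, from -1.47 to -2.89. No paired analysis was made because no label pairs a null with a wild-type sample. By number, null and wild-type samples neighbour each other as 6 and 7, 9 and 10, and 11 and 12. In these neighbours the erythroid list means were -0.58 and -0.52, 0.34 and 0.67, and 0.06 and 0.03. The somite list means were 0.12 and -0.11, 0.33 and -0.59, and 0.00 and 0.25. Whether neighbours were pairs was not tested. The cause of the changes between settings was not tested either. Bnip3l was not measured, Pink1 lay near background, and Dnm1l and Mfn2 had raw intensities of 66.5 to 136 and 74.5 to 186, where the offset of 50 compresses differences.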

Other observations

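The balance of fusion and fission transcripts was read by array after the member values had been seen. Each gene was centred on its mean over the arrays, and the mean of Dnm1l and Fis1 was taken from the mean of Opa1, Mfn1 and Mfn2. On the log2 scale this was 0.28 in null sample 6, 0.17 in null sample 9 and -0.11 in null sample 11. In wild-type samples 7, 10 and 12 it was -0.03, -0.28 and -0.03. Null samples 6 and 9 lay above all wild-type arrays and null sample 11 lay between them. In sample 6 the value came from low fission genes (-0.28), with the fusion genes at 0.00, whereas in sample 9 it came from high fusion genes (0.20), with the fission genes at 0.03. No test was made.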
